A study of Mus musculus with 24 samples.

Results

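Collagen chain genes were taken as all genes whose symbol reads Col, a number, the letter a and a number, which gave 44 genes of the 24421 in the count tables. They were followed across 24 heart samples of male mice aged 14 weeks, fed chow, of a mixed strain that the labels give as mostly C57BL/6N with some 129. The mice carried alleles of 2 mitochondrial enzymes of fatty acid oxidation, Acadl (the long-chain acyl-CoA dehydrogenase LCAD) and Acadvl (its very long-chain relative VLCAD). There were 6 genotypes: 4 samples of Acadl wt / Acadvl wt, 4 of Acadl Het / Acadvl wt, 3 of Acadl Het / Acadvl Het, 4 of Acadl Het / Acadvl KO, 4 of Acadl KO / Acadvl wt and 5 of Acadl KO / Acadvl Het. Libraries with Acadvl KO were therefore all Acadl Het, and no genotype carried Acadvl KO on Acadl wt. The sources used here do not say how the alleles were made.

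Collagens are trimers of chains that share long stretches in which glycine recurs at regular steps. Fibrillar collagens (types I, III, V) form the tensile fibres between heart muscle cells and are made mainly by fibroblasts, while type IV collagen forms the sheet-like network of basement membranes around capillaries and cardiomyocytes. Type VI forms beaded filaments that link fibres to basement membranes, FACIT collagens sit on the surface of fibrils, and the multiplexins (types XV and XVIII) lie where basement membrane meets the fibrillar matrix. Procollagen is hydroxylated and folded in the endoplasmic reticulum, trimmed outside the cell, cross-linked by lysyl oxidases, bound by integrins and discoidin domain receptors, and broken down by matrix metalloproteinases and cathepsins.

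Libraries held 34320838 to 51743114 counts, and the collagen chain genes took 0.158% to 0.377% of them. The targeted genes were looked at as label checks. Acadvl was lower in Acadl Het / Acadvl KO than in Acadl Het / Acadvl wt, at 599.2 against 1632 CPM (counts scaled to library size). Acadl went against its label: libraries with that label had at least 1697 CPM of it and no other library more than 1625, so "labelled Acadl KO" is used throughout, and directions drawn from that label rest on it. The labels give 2 RNA isolation batches (9 libraries in batch 1, 15 in batch 2), each with every genotype. Acadl Het / Acadvl Het replicate 1 held 17.3% ribosomal precursor reads (Rn45s), against 0.558% in the next library, and 6 libraries held the liver gene Alb above 10 CPM: all 3 of Acadl Het / Acadvl Het, Acadl Het / Acadvl KO replicate 2, and labelled Acadl KO / Acadvl wt replicates 2 and 3. The labels do not say whether 2 samples could come from 1 mouse, so the p-values reflect the spread of these samples and no more.

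Type IV chains, those of the basement membrane network, held 41.5% to 80.9% of the collagen level of a library, so the share differed widely between libraries. Levels are given as RPKM, the read density per kilobase of counted exon, scaled to library size with TMM factors, which allows genes to be compared per length. Col4a1 had the highest level of any collagen chain in 24 of 24 libraries and Col4a2 the next highest, with means of 125.3 and 105.2 RPKM, and both chains together held 39.5% to 79.2% of the summed collagen RPKM of a library. The fibrillar chains Col3a1 (27.0), Col1a2 (24.2) and Col1a1 (21.5) followed, and then the type VI chains Col6a1 (16.9) and Col6a2 (14.9). In all, 7 chains had a mean above 10 RPKM and 19 had one above 1 RPKM. Neighbours in this order often did not differ beyond their spread: the Col1a1 to Col1a2 ratio ran from 0.669 to 1.02, and the Col3a1 to Col1a1 ratio from 0.83 to 1.65 across libraries. By contrast the Col4a2 to Col4a1 ratio stayed below 1, between 0.744 and 0.959.

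**Figure D1:**
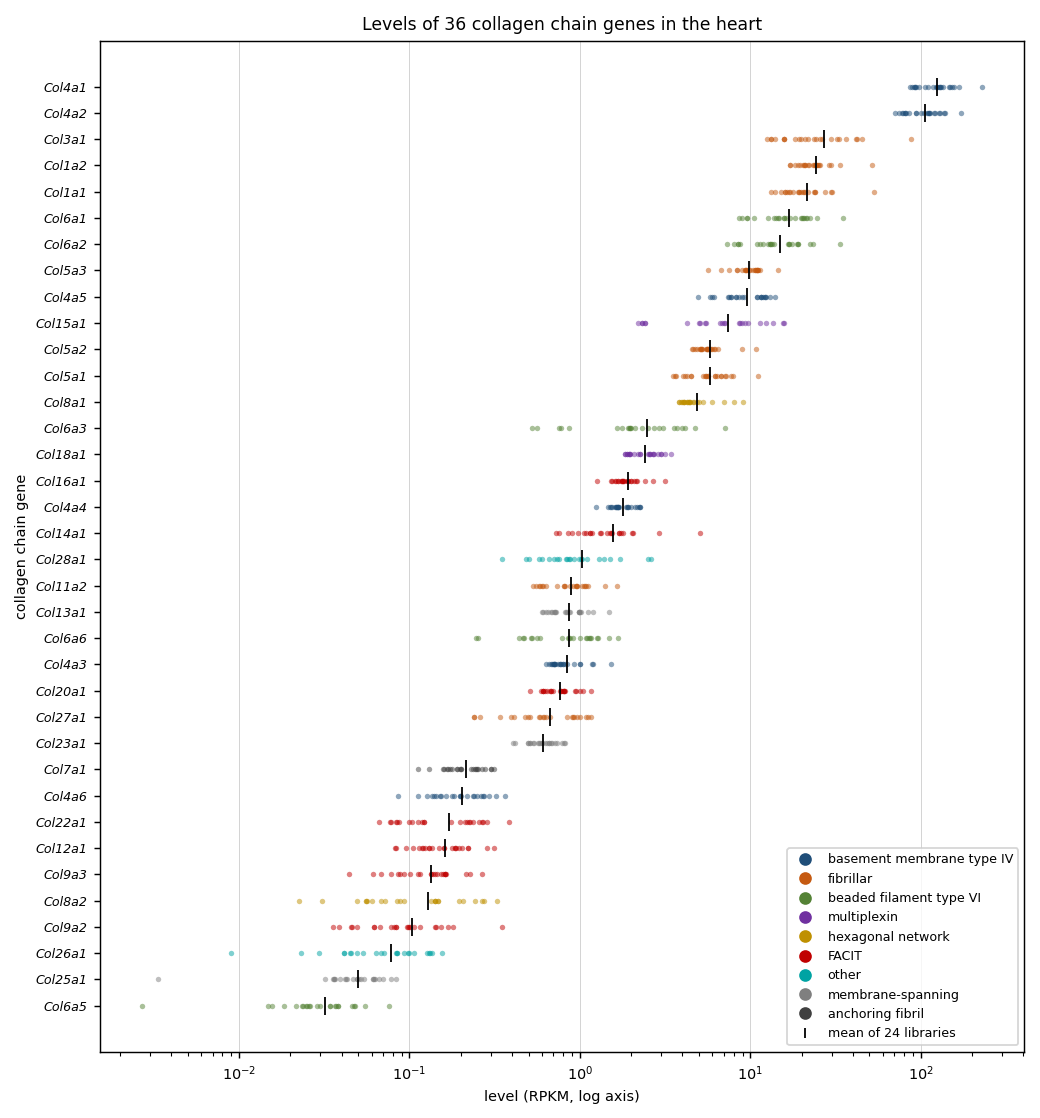
Level of the 36 tested collagen chain genes, in RPKM on a log axis; each point is 1 of 24 libraries, the bar is their mean and the colour is the class. The means of Col4a1 and Col4a2 (125.3 and 105.2) stand above that of every fibrillar chain.

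Of the 44 genes, 36 passed the filter on low counts and were tested. The other 8 (Col9a1, Col19a1, Col10a1, Col2a1, Col17a1, Col11a1, Col24a1 and Col6a4) had at most 27 counts in any library and 19 to 133 counts over all 24, so their differences were not detectable at this depth. They include the main cartilage chain (Col2a1) and the growth-plate chain (Col10a1). Counting without strand and with reads shared between overlapping genes leaves Col7a1, whose exons overlap Mir711, and Col9a3, whose exons overlap Tcfl5, uncertain.

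Type IV collagen is printed first because its 6 chain genes lie in 3 head-to-head pairs. In the count files' annotation (mm10) Col4a1 and Col4a2 start 2 bases apart on chromosome 8. In GENCODE, another gene annotation, this pair overlaps by 22 bases. By the count files' annotation Col4a4 and Col4a3 start 71 bases apart on chromosome 1. Col4a6 and Col4a5 start 1342 bases apart on chromosome X there. The sequences come from RefSeq windows of build GRCm38.p6. The first line, chr8:11312813-11312842 on the plus strand, covers the Col4a1 and Col4a2 starts, with the 2 bases between them in capitals. The second, chr1:82586850-82586920 on the minus strand, is the gap between Col4a4 and Col4a3. The third, chrX:141475169-141475384 on the plus strand, lies upstream of Col4a5, and the fourth, chrX:141474077-141474326 on the minus strand, upstream of Col4a6. Capitals in the third mark a CCAAT match and in the fourth a GC box match (GGGCGG, here on the other strand), and the second holds neither motif. The third is 216 bases long, shorter than the 250 searched, and Col4a5 also had a GC box match that lies outside it.
Col4a1-Col4a2 start sites: ggcggcgtctccaaGGggaggaccctgcgg
Col4a4-Col4a3 gap: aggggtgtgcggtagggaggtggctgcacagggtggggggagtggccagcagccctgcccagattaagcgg
Col4a5 upstream: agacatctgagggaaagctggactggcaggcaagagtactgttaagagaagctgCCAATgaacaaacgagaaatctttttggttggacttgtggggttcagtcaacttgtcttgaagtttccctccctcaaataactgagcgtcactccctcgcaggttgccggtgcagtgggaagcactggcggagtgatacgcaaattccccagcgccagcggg
Col4a6 upstream: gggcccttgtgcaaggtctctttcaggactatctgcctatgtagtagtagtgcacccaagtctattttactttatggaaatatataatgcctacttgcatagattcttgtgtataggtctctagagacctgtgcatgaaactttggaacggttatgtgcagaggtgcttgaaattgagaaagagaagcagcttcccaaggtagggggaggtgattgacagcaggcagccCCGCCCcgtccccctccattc

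The 250 bases upstream of a start were searched on both strands. GGGCGG was present in 32.7% of all 32851 RefSeq windows and 57.9% of collagen windows (21 of the 35 genes that matched by symbol). CCAAT was present in 33.8% of all windows and 34.2% of collagen windows (13 of the 35 genes), and TATAAA in 12.4% and 13.2% (5 of 35 genes). A match is a description of letters only, and 9 of the 44 genes were not matched.

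Col4a5 was the chain that separated libraries most cleanly. Its RPKM was 12.2, 11.8, 11.6 and 13.9 in Acadl wt / Acadvl wt replicates 1 to 4, and 12.4, 12.1, 13.1 and 11.6 in Acadl Het / Acadvl wt. It was 11.6, 10.98 and 10.97 in Acadl Het / Acadvl Het. In libraries with a KO label it was 6.00, 8.24, 7.68 and 8.95 for Acadl Het / Acadvl KO. The labelled Acadl KO / Acadvl wt libraries held 5.78, 6.11, 8.61 and 7.46, and the labelled Acadl KO / Acadvl Het libraries 7.37, 8.19, 7.74, 9.20 and 4.92. All 13 libraries labelled KO for either gene (4.92 to 9.20) lay below all 11 others (10.97 to 13.94). Of the 36 tested chains this was the only 1 whose values did not overlap between libraries with and without a KO label; over all genes 8.56% did not overlap, and 3.59% lay below, as Col4a5 did, and 4.97% above. Col4a5 encodes a chain of the basement membrane of kidney, and of other epithelia and smooth muscle.

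Tests were made with edgeR's quasi-likelihood model, fitted to all 24 libraries with genotype and batch as terms, with Benjamini-Hochberg adjustment over 15804 genes and a threshold of 0.05. In the libraries labelled Acadl KO / Acadvl wt against Acadl wt / Acadvl wt, Col4a5 fell by 0.82 on the log2 scale (standard error 0.15, adjusted p = 0.000289). Against Acadl Het, balanced over Acadvl wt and Acadvl Het, it fell by 0.69 in the labelled Acadl KO libraries (SE 0.11, adjusted p = 1.8e-05), and it fell by 0.66 in Acadl Het / Acadvl KO against Acadl Het / Acadvl wt (SE 0.15, adjusted p = 0.00287). Its head-to-head neighbour, Col4a6, was rare, at a mean of 0.204 RPKM. It was 0.262, 0.268, 0.240 and 0.323 RPKM in Acadl wt / Acadvl wt and 0.152, 0.112, 0.182 and 0.143 in labelled Acadl KO / Acadvl wt, without overlap. Col4a6 fell by 0.91 there (SE 0.22, adjusted p = 0.00317) and by 0.86 against Acadl Het (SE 0.16, adjusted p = 0.000162); it was not called for Acadvl KO. Because these are bulk heart samples, fewer cells of a type and less RNA per cell cannot be told apart.

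The abundant pair went the other way. Col4a1 was 93.1, 91.4, 110.5 and 106.3 RPKM in Acadl wt / Acadvl wt and 130.2, 149.2, 92.9 and 146.8 in labelled Acadl KO / Acadvl wt, so replicate 3 of the latter lay among the wild type values and the groups overlapped. The Acadl Het / Acadvl wt values were 117.4, 94.0, 98.1 and 123.5, and the Acadl Het / Acadvl KO values 166.9, 124.4, 131.7 and 129.3, all above the former. The Acadl Het / Acadvl Het libraries held 88.6, 86.8 and 134.8, and the labelled Acadl KO / Acadvl Het libraries held 128.6, 151.7, 156.4, 124.2 and 230, of which replicate 5 was the highest of all 24. Col4a2 rose by 0.45 in the labelled Acadl KO / Acadvl wt libraries (SE 0.15, adjusted p = 0.021), by 0.47 against Acadl Het (SE 0.11, adjusted p = 0.000916) and by 0.46 with Acadvl KO (SE 0.15, adjusted p = 0.0284). Col4a1 rose against Acadl Het (log2 change 0.46, SE 0.12, adjusted p = 0.00332), and its log2 change was 0.43 against wild type (adjusted p = 0.0534) and 0.41 with Acadvl KO (adjusted p = 0.0834), neither called. Col4a3 and Col4a4, the third pair, were called in none of the 7 comparisons.

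**Figure D2:**
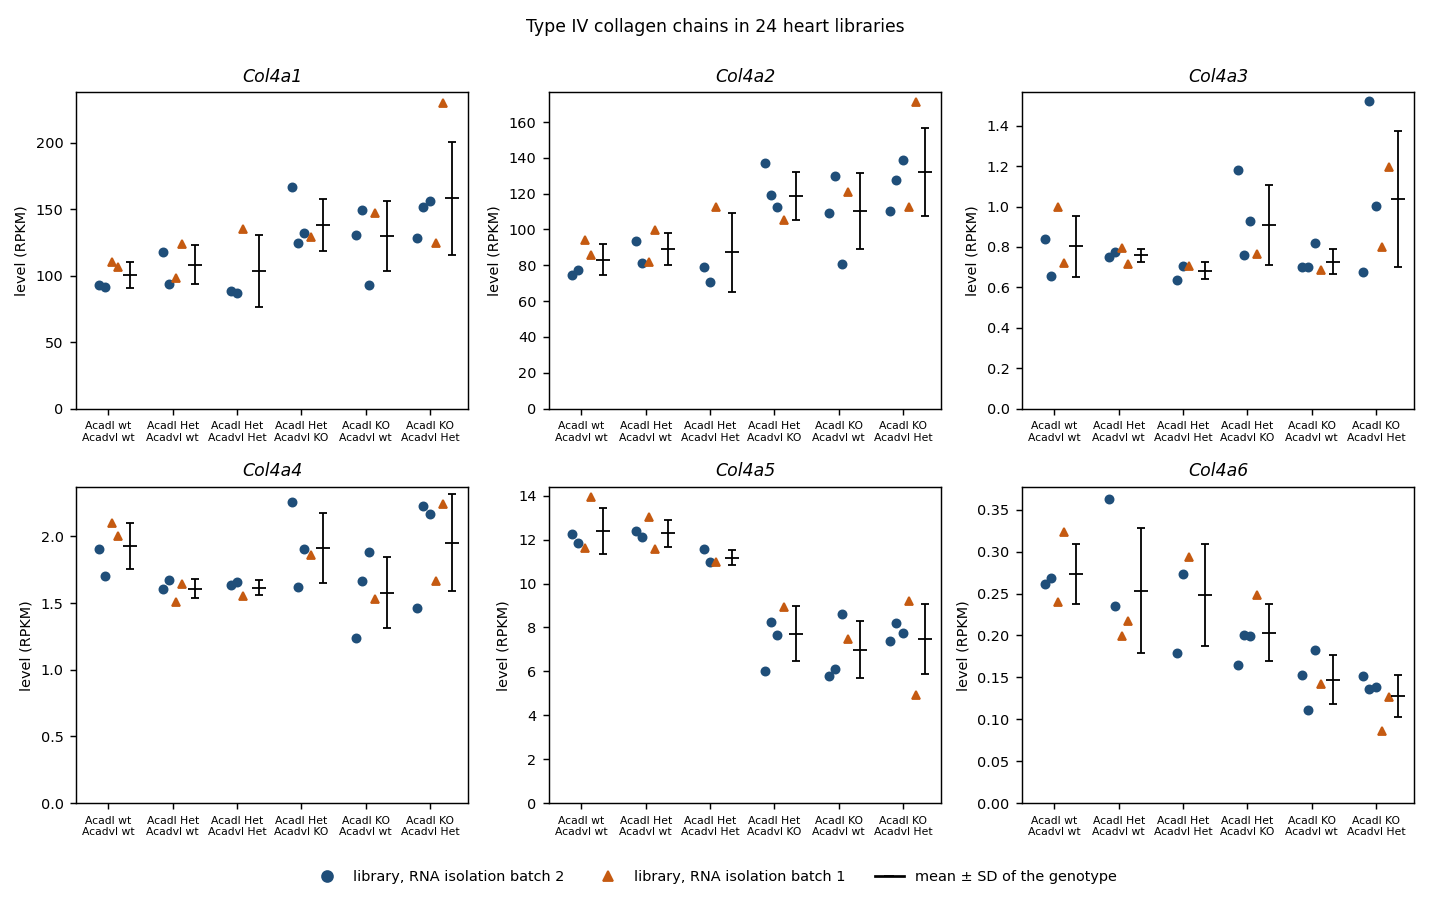
Level of type IV collagen chains in each library, in RPKM, by genotype. Circles are RNA isolation batch 2 and triangles batch 1, with the mean and SD; Col4a5 in libraries labelled KO sits at 4.92 to 9.20, below the 10.97 to 13.94 of all other libraries.

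Set beside Col4a1 within a library, Col4a5 was 0.124 of its level in Acadl wt / Acadvl wt and 0.0572 in the labelled Acadl KO / Acadvl wt libraries. The ratio was 0.115 in Acadl Het / Acadvl wt and 0.0574 in Acadl Het / Acadvl KO, with ranges that did not overlap (0.0938 to 0.133 and 0.036 to 0.0692). This ratio was chosen after the values were seen and is given as a description. Markers of endothelial cells, which make type IV collagen, were read beside it. In the labelled Acadl KO / Acadvl wt libraries 1 of 10 was called, where 37.2% of all genes were. It was Cldn5, a tight-junction gene, which rose by 1.05. Against Acadl Het 4 of 10 rose and 1 fell, where 26.7% of all genes rose and 27.9% fell. The summed level of the 10 markers ran from 1422 to 1628 CPM in Acadl wt / Acadvl wt, 1378 to 1789 in labelled Acadl KO / Acadvl wt and 1448 to 1905 in labelled Acadl KO / Acadvl Het, and none of the 10 was at 0 in all libraries. Their part in the result was not tested.

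Counted over the whole family, the labelled Acadl KO / Acadvl wt libraries differed from Acadl wt / Acadvl wt in 6 of 36 chains, 1 higher and 5 lower. That is 16.7% of the chains, against 37.2% of all genes tested called in this comparison (19.6% higher, 17.6% lower). The median log2 change of the 36 chains was -0.29 and that of all genes -0.017, with 30 chains below 0. Besides the type IV chains, Col22a1, Col27a1 and Col20a1 fell. Col22a1 encodes a FACIT chain of tissue junctions such as that of muscle and tendon. It was 0.212, 0.226, 0.257 and 0.175 RPKM in Acadl wt / Acadvl wt and 0.122, 0.0865, 0.0988 and 0.0773 in labelled Acadl KO / Acadvl wt, all of the latter below all of the former, and it fell by 1.28 (SE 0.28, adjusted p = 0.00143). Col27a1, a fibrillar chain known from cartilage, was 0.912, 1.08, 0.609 and 0.961 RPKM against 0.496, 0.239, 0.410 and 0.574, also without overlap, and it fell by 1.02 (adjusted p = 0.0191). Col20a1, a FACIT chain, fell by 0.54 (adjusted p = 0.00576), from 0.802 to 1.16 RPKM down to 0.607 to 0.776. All 6 had the same sign within each batch, with 4 called in batch 2 and 0 in batch 1. Col27a1 lost its call without Acadl wt / Acadvl wt replicate 2 or labelled Acadl KO / Acadvl wt replicate 2, and Col4a2 without wild type replicate 1 or labelled Acadl KO / Acadvl wt replicate 2. When the libraries above 10 CPM of Alb were left out, Col20a1 (-0.47, adjusted p = 0.0802) and Col27a1 (-0.74, adjusted p = 0.196) were no longer called.

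**Figure D3:**
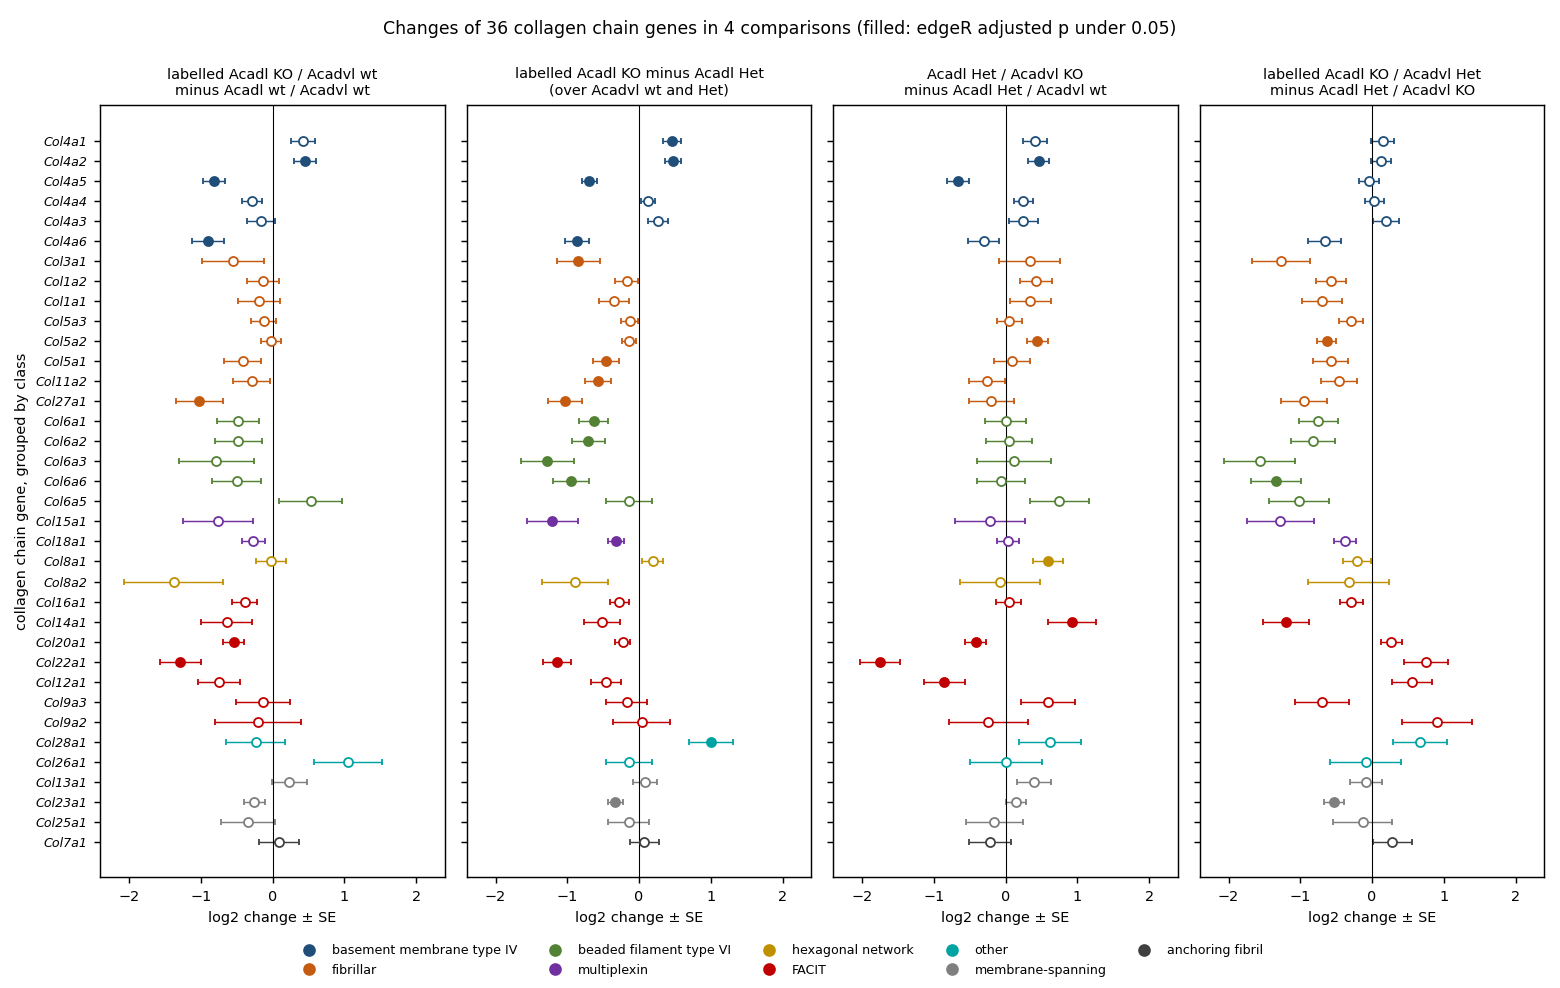
Log2 change ± SE of the 36 tested collagen chains in 4 comparisons, coloured by class; filled points had an edgeR adjusted p under 0.05 and open points did not. Col22a1, Col4a5 and Col4a6 lie below 0 and Col4a1 and Col4a2 above 0 in the comparisons of labelled Acadl KO with wild type and with Acadl Het.

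Several fibrillar and most type VI chains, and both multiplexins, were lower in the libraries labelled Acadl KO than in Acadl Het, balanced over Acadvl wt and Acadvl Het. Here 17 of 36 chains were called, 3 higher and 14 lower, or 47.2% of the chains against 54.7% of all genes (26.7% higher, 27.9% lower). By class 4 of 8 fibrillar, 4 of 5 type VI, 2 of 2 multiplexin, 2 of 6 type IV, 1 of 7 FACIT and 1 of 3 membrane-spanning chains fell. The 3 that rose were Col4a1, Col4a2 and Col28a1. Only 8 of the 17 calls remained without libraries above 10 CPM of Alb and with Acadl Het / Acadvl wt as the only controls. That alternative was chosen after seeing the data. Col6a1, Col6a2, Col6a3 and both multiplexins were among the calls lost. The comparison above shares the labelled Acadl KO / Acadvl wt libraries with this one.

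Type III collagen is the chain that co-assembles with type I in compliant tissue. Col3a1 had a lowest value of 12.6, a median of 15.8 and a highest of 24.4 RPKM over the 9 labelled Acadl KO libraries, and 19.2, 32.2 and 44.9 over the 7 Acadl Het libraries without Acadvl KO, so the groups overlapped at the low end. Col3a1 fell by 0.84 (SE 0.30, adjusted p = 0.0245), while the log2 changes of Col1a1 (-0.35, adjusted p = 0.165) and Col1a2 (-0.17, adjusted p = 0.366) did not pass. Col5a1, a chain of the thin type V fibrils that nucleate type I fibres, fell by 0.46 (adjusted p = 0.0399), as did Col11a2 by 0.57 and Col27a1 by 1.03. The 250 bases upstream of Col3a1 (chr1:45311288-45311537, plus strand) and of Col15a1 (chr4:47207762-47208011, plus strand) are printed, from RefSeq on GRCm38.p6. Both chains were called lower in this comparison. Their calls were lost without libraries above 10 CPM of Alb and with Acadl Het / Acadvl wt as the only controls. The TATAAA match of Col3a1 is in capitals and Col15a1 held none of the 3 motifs.
Col3a1 upstream: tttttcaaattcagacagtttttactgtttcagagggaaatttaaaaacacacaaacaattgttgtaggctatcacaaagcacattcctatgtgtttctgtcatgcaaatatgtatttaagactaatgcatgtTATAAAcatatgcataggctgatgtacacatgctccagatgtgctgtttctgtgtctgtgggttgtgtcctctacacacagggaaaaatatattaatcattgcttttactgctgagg
Col15a1 upstream: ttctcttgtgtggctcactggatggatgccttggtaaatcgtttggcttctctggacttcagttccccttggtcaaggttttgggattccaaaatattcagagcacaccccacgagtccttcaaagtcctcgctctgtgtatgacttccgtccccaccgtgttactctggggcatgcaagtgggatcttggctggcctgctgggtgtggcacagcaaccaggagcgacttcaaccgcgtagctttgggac

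Of the type VI chains, Col6a1, Col6a2, Col6a3 and Col6a6 were called lower in this comparison. The calls of Col6a1, Col6a2 and Col6a3 were lost without libraries above 10 CPM of Alb and with Acadl Het / Acadvl wt as the only controls. Col6a3 was 0.525, 1.65 and 1.98 RPKM (lowest, median, highest) in the labelled Acadl KO libraries and 1.99, 3.08 and 4.77 in Acadl Het, and it fell by 1.28 (SE 0.37, adjusted p = 0.00715). All of its labelled Acadl KO values (up to 1.979) lay below all of those of Acadl Het without Acadvl KO (from 1.991), by a narrow margin. Acadl Het / Acadvl KO libraries ran from 0.858 to 7.07 RPKM and overlapped with labelled Acadl KO. Col6a1 and Col6a2, the chains that must join Col6a3 to form a type VI monomer, fell by 0.63 (adjusted p = 0.0141) and 0.71 (adjusted p = 0.0136). The rarer Col6a6 fell by 0.94 (adjusted p = 0.00343). Col15a1, a multiplexin chain of the vessel and muscle basement membrane zone, was 2.19, 5.03 and 7.05 RPKM against 5.39, 9.32 and 15.6, which overlapped, and it fell by 1.21 (SE 0.35, adjusted p = 0.00707). Col18a1, the other multiplexin and the source of endostatin, fell by 0.33 (adjusted p = 0.0185).

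Among the remaining chains, Col22a1 again fell (1.14, SE 0.20, adjusted p = 5.8e-05) and so did Col23a1, a membrane-spanning chain (0.33, adjusted p = 0.00987). Col28a1, a chain with von Willebrand domains known from the nerve sheath, rose by 1.00 against Acadl Het (SE 0.31, adjusted p = 0.00941). It had 0.739, 1.02 and 2.61 RPKM over the 9 labelled Acadl KO libraries and 0.350, 0.658 and 0.859 over the 7 Acadl Het libraries, which overlapped. Acadl wt / Acadvl wt libraries ran from 0.575 to 1.495 RPKM with a median of 1.249, above the Acadl Het median. Col28a1 was not called in labelled Acadl KO / Acadvl wt against them. The Acadl Het controls include 3 Acadl Het / Acadvl Het libraries above 10 CPM of Alb. With those libraries and the other 3 above 10 CPM left out, and Acadl Het / Acadvl wt as the only controls, an alternative chosen after seeing the data, 8 of the 17 remained called. Lost were Col3a1 (-0.81, adjusted p = 0.0904), Col6a3 (-1.12, adjusted p = 0.0775), Col6a1, Col6a2, Col5a1, Col18a1, Col23a1, Col15a1 (-1.09, adjusted p = 0.0581) and Col28a1. Within batch 2, 16 of the 17 were called, and within batch 1 only 1. With single libraries left out, Col3a1 lost its call without replicate 2 of Acadl Het / Acadvl Het, without replicate 1 of Acadl Het / Acadvl wt and without labelled Acadl KO / Acadvl wt replicate 2, and Col5a1 lost it in 8 of 16 such fits. Col18a1 lost it in 3 fits, and Col6a1, Col6a2 and Col23a1 in 1, without Acadl Het / Acadvl Het replicate 2.

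**Figure D4:**
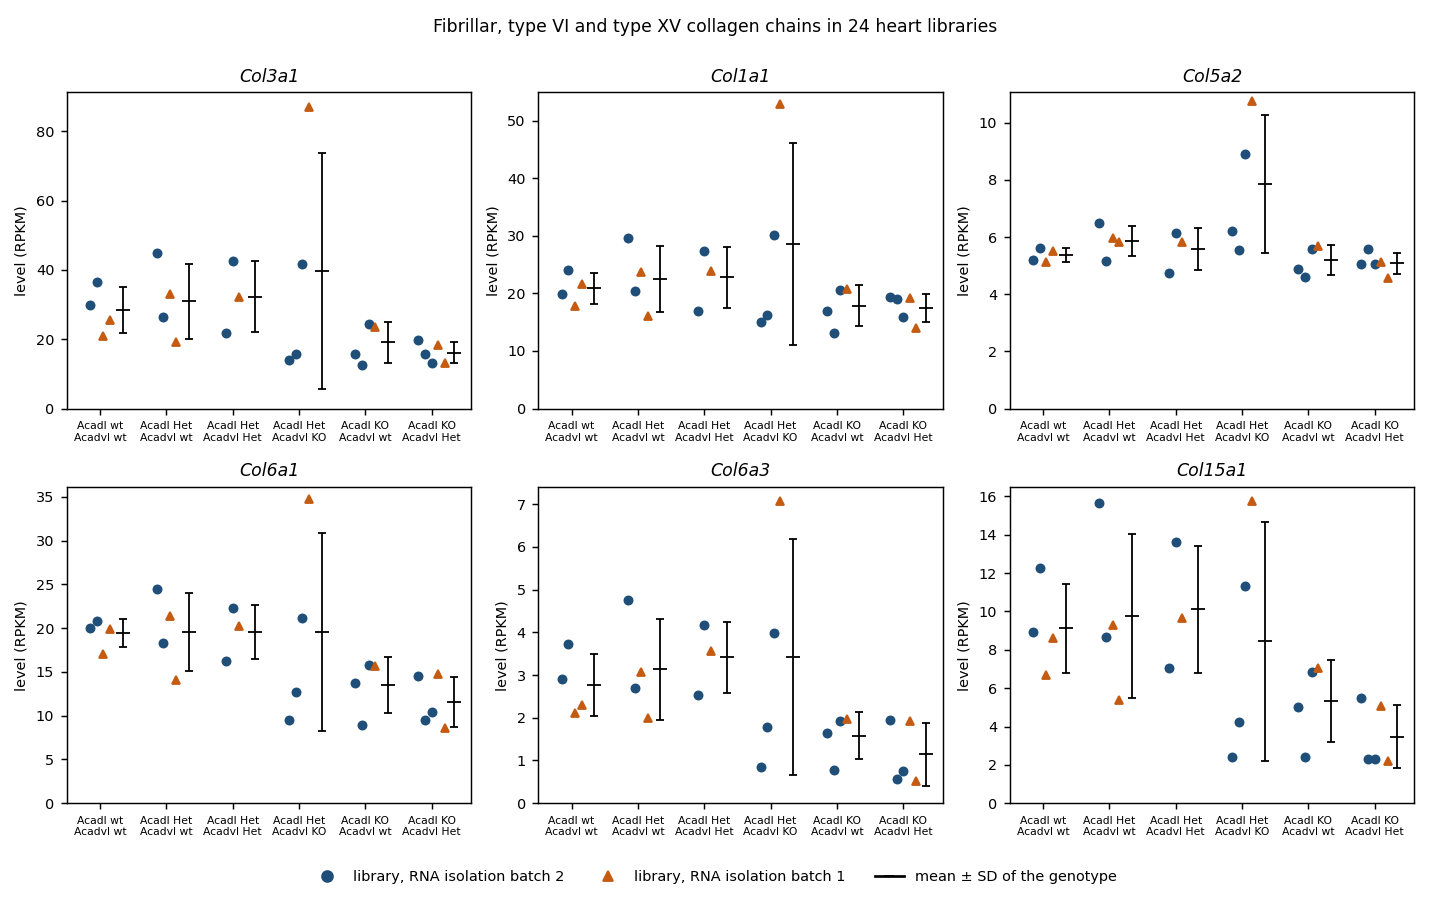
Level of fibrillar, type VI and multiplexin chains in each library, in RPKM, by genotype. Circles are batch 2 and triangles batch 1, with the mean and SD; Acadl Het / Acadvl KO spreads from 14.0 to 87.1 RPKM of Col3a1, wider than any other genotype.

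Of the 12 fibroblast markers, 4 fell and 0 rose in the same comparison, where 27.9% of all genes fell. Their median log2 change was -0.25, against -0.025 over all genes. The markers that fell include Tcf21, which fell by 0.66, and Lum, a fibril-binding proteoglycan, which fell by 0.73. Their summed level ran from 2408 to 2799 CPM in labelled Acadl KO / Acadvl wt and 2087 to 2509 in labelled Acadl KO / Acadvl Het, against 2267 to 2761 in Acadl Het / Acadvl wt and 2323 to 2910 in Acadl Het / Acadvl Het, and none was at 0 in all libraries. On average most of this sum is 1 marker, Gsn, with a mean of 1621 CPM over all libraries. Of the markers of activated fibroblasts 2 of 8 fell, Tnc and Acta2, and 0 rose, with a median of -0.35. Atrial markers fell in 3 of 5 and ran from 136.1 to 1958 CPM within labelled Acadl KO / Acadvl Het alone. Their part in the collagen results was not tested.

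With Acadvl KO the chains moved in both directions, and the libraries varied. Acadl Het / Acadvl KO differed from Acadl Het / Acadvl wt in 8 of 36 chains, 4 higher and 4 lower, or 22.2% against 24.4% of all genes (12.9% higher, 11.5% lower). Lower were Col22a1 (-1.75, SE 0.28, adjusted p = 0.00014), Col12a1 (-0.85, adjusted p = 0.0336), Col4a5 and Col20a1 (-0.42, adjusted p = 0.0482). Col22a1 was 0.385, 0.267, 0.222 and 0.236 RPKM in Acadl Het / Acadvl wt and 0.0835, 0.122, 0.0782 and 0.0662 in Acadl Het / Acadvl KO, so every Acadvl KO library lay below every Acadvl wt library. Col12a1, a FACIT chain of tendon and muscle matrix, was 0.286, 0.177, 0.188 and 0.221 against 0.118, 0.0821, 0.160 and 0.130. Higher were Col4a2, Col5a2, Col8a1 and Col14a1.

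Those that rose besides Col4a2 did so mostly through 2 of 4 libraries. Col14a1, a FACIT chain that controls fibril growth, was 1.70, 1.33, 2.90 and 5.05 RPKM in Acadl Het / Acadvl KO, with replicates 3 and 4 high, and 1.70, 1.52, 1.503 and 1.08 in Acadl Het / Acadvl wt, and it rose by 0.93 (SE 0.34, adjusted p = 0.0497). Col8a1, a chain of the hexagonal networks of vessel walls, was 4.23, 3.80, 8.01 and 9.002 against 4.99, 3.80, 3.95 and 4.08, and it rose by 0.59 (adjusted p = 0.0452). Col5a2 was 6.21, 5.55, 8.91 and 10.8 against 6.48, 5.17, 5.96 and 5.82, and it rose by 0.44 (adjusted p = 0.0272). In each, replicates 1 and 2 lay among or near the Acadl Het / Acadvl wt values. Within batch 2, which holds replicates 1 to 3, the log2 changes were 0.30, 0.29 and 0.24 for Col14a1, Col8a1 and Col5a2, and none was called; within batch 1, where replicate 4 is the only library of its genotype, they were 1.98, 1.18 and 0.88. Col3a1 was 14.0, 15.8, 41.6 and 87.1 RPKM in Acadl Het / Acadvl KO, so that replicate 4 lay above the 44.9 that was the highest in any other genotype, and its log2 change of 0.34 was not called (adjusted p = 0.600). When each library of the comparison was left out in turn, between 2 and 5 of the 36 chains were called, with the lowest count without Acadl Het / Acadvl wt replicate 3. Col22a1 and Col4a5 were called in all 8 of those fits, while Col20a1 lost its call in 7, Col14a1 in 6, Col5a2, Col8a1 and Col12a1 in 5 and Col4a2 in 4.

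Leukocyte and activated fibroblast markers both had their highest sums in the same replicates 3 and 4, and fibroblast markers in replicates 1 and 3. Leukocyte markers summed to 223.8, 226.8, 319.5 and 431.2 CPM in Acadl Het / Acadvl KO replicates 1 to 4, against 198.7 to 228.5 in Acadl Het / Acadvl wt. Activated fibroblast markers summed to 210.8, 158.4, 217.5 and 287 CPM, so that replicate 1 lay near replicate 3. Fibroblast markers summed to 2932, 2705, 3057 and 2849 CPM, with replicate 4 below replicate 1. On average most of that sum is Gsn (mean 1621 CPM over all libraries), so it says little of the other fibroblast markers. Against Acadl Het / Acadvl wt, 2 of the 8 activated fibroblast markers rose, Cilp by 1.68 and Fn1 by 0.53. In the same list 1 fell, Acta2 by 1.145, where 12.9% of all genes rose and 11.5% fell. Cd68, a macrophage gene, rose by 1.00. None of the 3 lists had a gene at 0 in all libraries, and their part in the collagen results was not tested.

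The labelled Acadl KO / Acadvl Het libraries were set against Acadl Het / Acadvl KO, which share no library with each other but differ at both genes. Here 4 of 36 chains were called, all lower, or 11.1% against 8.77% of all genes (3.3% higher, 5.47% lower). They were Col6a6 (-1.34, SE 0.34, adjusted p = 0.0236), Col14a1 (-1.20, adjusted p = 0.028), Col5a2 (-0.63, adjusted p = 0.00893) and Col23a1 (-0.53, adjusted p = 0.0238). Col14a1 was 1.15, 2.03, 0.899, 0.977 and 0.848 RPKM in the labelled Acadl KO / Acadvl Het libraries against the 1.33 to 5.05 given above, and the groups overlapped at replicate 2. It lost its call in 6 of 9 fits with a library left out, Col6a6 and Col23a1 in 3 and Col5a2 in 1. Col6a6, an alternative type VI chain, was 0.514, 0.253, 0.442, 0.470 and 0.247 against 0.463, 0.869, 0.907 and 1.68. Leaving out Acadl Het / Acadvl KO replicate 4 left 0 chains called with edgeR, replicate 3 left 1 and labelled Acadl KO / Acadvl Het replicate 5 left 2, while leaving out Acadl Het / Acadvl KO replicate 1 gave 16 and replicate 2 gave 8. Col3a1 (-1.27, adjusted p = 0.0545) and Col6a3 (-1.57, adjusted p = 0.0545) did not pass the threshold. Fibroblast markers fell in 6 of 12 here and leukocyte markers in 3 of 7; their part in the result was not tested.

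In the remaining 3 comparisons no chain passed the test. Acadl Het / Acadvl wt against Acadl wt / Acadvl wt gave 0 chains called with edgeR (0% of all genes), with 2 at an unadjusted p under 0.05. Acadvl Het against Acadvl wt, balanced over the Acadl genotypes, gave 0 against 0.0127% of all genes (0.00633% higher, 0.00633% lower), with 0 at an unadjusted p under 0.05. The Acadl KO by Acadvl Het interaction gave 0 against 0% of all genes, with 6 at an unadjusted p under 0.05. DESeq2 and limma voom also called 0 chains in these 3.

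The comparison with wild type for labelled Acadl KO / Acadvl wt and that of Acadvl KO with Acadl Het / Acadvl wt share no libraries. They called 4 chains in common, Col4a5, Col22a1, Col20a1 and Col4a2, all in the same direction, which is 66.7% of the 6 chains called in the former and 50% of the 8 called in the latter. Over all genes 2757 were called in both, 46.9% and 71.6% of each list, of which 2745 had the same direction.

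**Figure D5:**
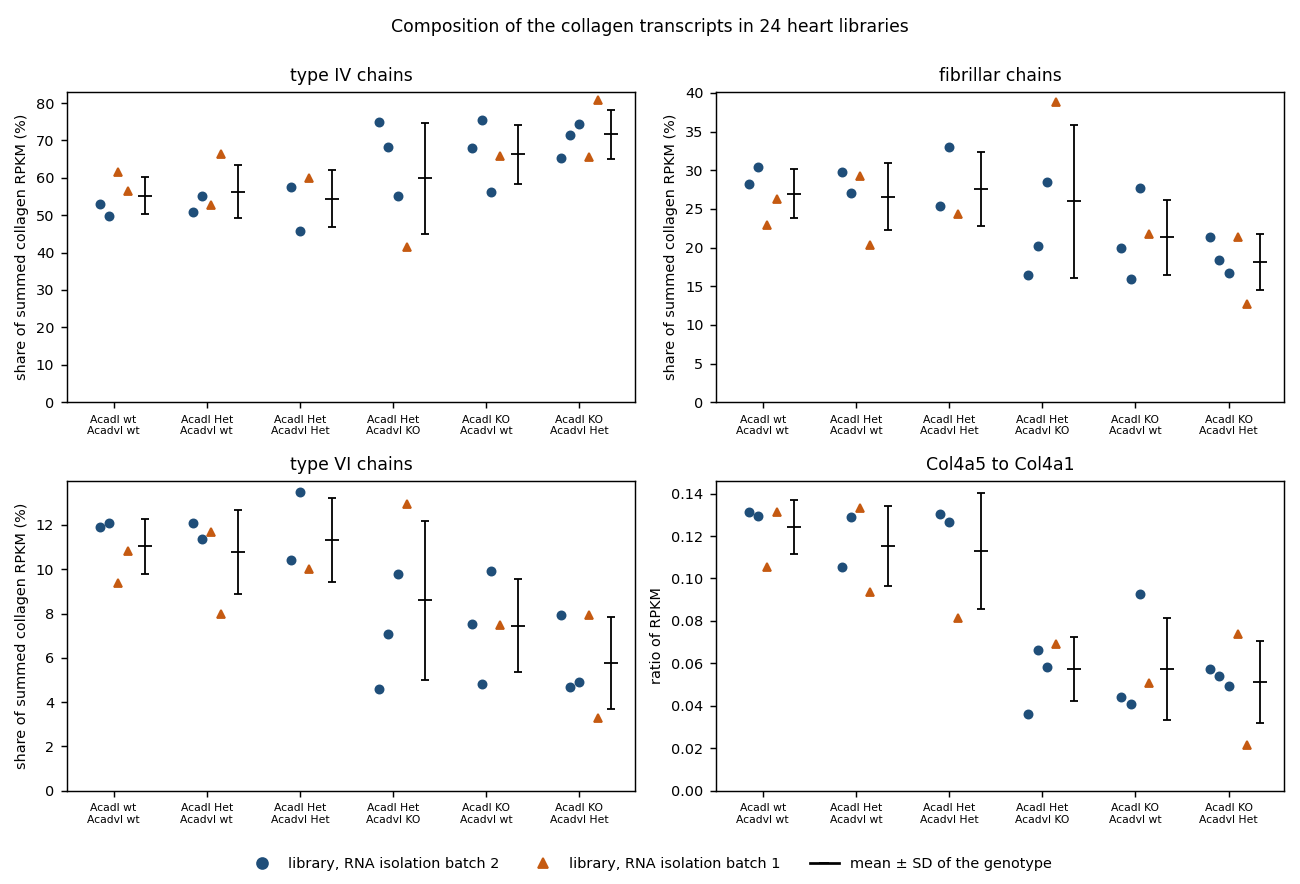
Share of summed collagen RPKM held by type IV, fibrillar and type VI chains, in percent, and the Col4a5 to Col4a1 ratio, by library and genotype. The type IV share has means of 66.3% and 71.6% in the labelled Acadl KO genotypes and 54.4% to 56.3% in genotypes without a KO label.

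Shares of summed collagen RPKM were described without a test. Type IV held a higher mean share in the labelled Acadl KO genotypes, and fibrillar and type VI chains a lower one. The type IV share had means of 55.2% ± 4.99 (SD, n = 4) in Acadl wt / Acadvl wt, 56.3% ± 6.98 in Acadl Het / Acadvl wt, 66.3% ± 7.88 in labelled Acadl KO / Acadvl wt and 71.6% ± 6.50 (n = 5) in labelled Acadl KO / Acadvl Het. In Acadl Het / Acadvl KO it was 59.9% ± 14.8. The fibrillar share was 27.0% in wild type and 18.1% in labelled Acadl KO / Acadvl Het, and the type VI share 11.04% and 5.75%. These shares sum to a whole, so 1 class cannot move without the others.

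The fibrillar and related chains varied together between libraries. Over 24 libraries Col3a1 correlated with Col1a1 (r = 0.957, rho = 0.954), with Col15a1 (r = 0.920, rho = 0.978) and with Col6a3 (r = 0.907, rho = 0.955). For each, the permutation p was 1e-05, the smallest that 100000 resamples give, and 1.2e-05 after adjustment over the 5 relations computed. Without the 2 most distant libraries the r values were 0.937, 0.911 and 0.942, and in both batches every r was at least 0.896. Col4a1 correlated with Col4a2 (r = 0.977, rho = 0.967, 0.974 without 2 libraries; permutation p = 1e-05). Col4a1 and Col3a1 ran opposite (r = -0.495, permutation p = 0.014; rho = -0.583, permutation p = 0.0032), but r was -0.381 without 2 libraries and -0.337 within genotypes. Within genotypes Col3a1 had r of 0.983 with Col1a1, 0.923 with Col15a1 and 0.871 with Col6a3. The libraries share depth and the 5 relations were chosen after the values were seen, a choice the adjustment does not cover. Resampling ran over all 24 libraries without regard to genotype or batch, so its p-values also take in differences between genotypes.

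Genes that make and process collagen were read next, from a list of 34, of which 33 were tested. In the labelled Acadl KO / Acadvl wt libraries 4 rose and 6 fell, and against Acadl Het 6 rose and 11 fell. The share of all genes that rose or fell was 19.6% and 17.6% in the former, and 26.7% and 27.9% in the latter. The list's median log2 change was -0.072 and -0.12, against -0.017 and -0.025 over all genes. Plod2, a lysyl hydroxylase that prepares cross-links, had 36.2 ± 5.55 CPM (SD, n = 4) in wild type and 17.0 ± 1.61 in labelled Acadl KO / Acadvl wt, and it fell by 1.13 (adjusted p = 1.65e-08). P4ha1, the catalytic chain of prolyl hydroxylase, fell by 0.87, Serpinh1, the collagen chaperone HSP47, by 0.59 and Crtap, a prolyl 3-hydroxylation partner, by 0.66. Lox, which cross-links collagen, rose by 1.15 and Adamts3, a procollagen N-proteinase, by 0.82. With Acadvl KO 2 rose (Sparc by 0.50, Adamts2 by 0.42) and 4 fell, Plod2 by 0.83, Fkbp10 by 0.67, P4ha1 by 0.66 and P3h4 by 0.49. Between the KO labels (the labelled Acadl KO / Acadvl Het libraries against Acadl Het / Acadvl KO) 1 rose, Fkbp10, and 3 fell, Creb3l1, Serpinh1 and Bmp1. The list's medians there were 0.044 and -0.17, against 0.016 and -0.0011 over all genes, of which 24.4% and 8.77% were called.

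Receptors and breakdown genes had 19 of 20 tested. In labelled Acadl KO / Acadvl wt 2 rose and 3 fell: Timp4, an inhibitor of metalloproteinases, by 0.97 upward, and Itga10 and Itga1, collagen-binding integrins, by 1.09 and 0.63 downward. Against Acadl Het 4 rose and 11 fell, among them Itga11, a fibroblast integrin for fibrillar collagen, by 0.82 and Mmp9 by 1.03. With Acadvl KO 3 rose, Ctsk, Mmp14 and Mmp2, and 2 fell, Itgb1 and Itga1. Between the KO labels 0 rose and 8 fell, including Ddr2, a collagen receptor kinase, by 0.44 and Mmp14 by 0.39. The list's median log2 change was -0.28, -0.34, 0.022 and -0.42 in these 4 comparisons, in the order given, beside the medians and shares of all genes just given. In TGF-beta signalling, a list of 19 genes that includes its ligands and targets, 3 rose and 7 fell in labelled Acadl KO / Acadvl wt, 3 rose and 8 fell against Acadl Het, 3 rose with Acadvl KO and 1 fell between the KO labels. Its medians were -0.25, -0.12, 0.045 and -0.13, in the same order. Tgfb2 and Tgfb3, ligands, fell by 1.12 and 0.75 in the labelled Acadl KO / Acadvl wt libraries, while the ligand Tgfb1 rose by 0.41 with Acadvl KO.

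The cell-type marker lists were counted in the same 4 comparisons, first in labelled Acadl KO / Acadvl wt against wild type. There 19.6% of all genes were higher and 17.6% lower. Against Acadl Het the shares of all genes were 26.7% and 27.9%. With Acadvl KO they were 12.9% and 11.5%, and between the KO labels 3.3% and 5.47%. Fibroblast markers gave 0 higher and 1 lower of 12, activated fibroblast 0 and 1 of 8, mural 0 and 1 of 10, cardiomyocyte 0 and 2 of 8, Schwann 0 and 3 of 7, skeletal muscle 0 and 1 of 4 and hepatocyte 1 and 0 of 8. Epicardial (7), leukocyte (7), valve and cartilage (6), atrial (5) and adipocyte (3) markers gave none. Against Acadl Het, mural gave 2 and 2, cardiomyocyte 0 and 3, epicardial 1 and 1, Schwann 0 and 4, leukocyte 1 and 1, valve and cartilage 0 and 1, skeletal muscle 0 and 1 and hepatocyte 0 and 5, with adipocyte at 0 and 0, in higher and lower genes. With Acadvl KO, fibroblast markers gave 1 higher and 0 lower, activated fibroblast 2 and 1, leukocyte 2 and 0, mural 0 and 1, cardiomyocyte 0 and 3, Schwann 0 and 1, skeletal muscle 0 and 1, and epicardial, endothelial, valve and cartilage, atrial, adipocyte and hepatocyte markers none. Between the KO labels, endothelial markers gave 1 and 0, mural 0 and 1, Schwann 0 and 1, activated fibroblast 0 and 3, skeletal muscle 1 and 0 and hepatocyte 0 and 1, and cardiomyocyte, epicardial, valve and cartilage, atrial and adipocyte markers none. Their part in the collagen results was not tested.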

How the data were processed

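Messenger RNA of 24 heart samples was measured, 1 library each. Deposited values are whole-number counts of reads for each gene symbol. Per the file headers, the authors counted reads over exons of mm10 genes with featureCounts 1.5.2, without strand, and with a read counted for each gene it overlaps. STAR 2.5.1b and featureCounts 1.5.3 are named per the submitters' processing notes.

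The analysis used edgeR 4.0.16 in R 4.3.3: filterByExpr left 15804 of 24421 genes, TMM factors scaled libraries, and 1 quasi-likelihood fit (legacy off, robust on) used genotype and RNA isolation batch, with Benjamini-Hochberg adjustment over all genes tested and a threshold of 0.05. RPKM was computed from these counts, TMM-scaled library sizes and counted exon length. Alternatives used DESeq2 1.42.0 and limma 3.58.1. The test was checked on simulated counts. Replicates were compared by chi-square over genes, which was 14.9 to 528 times its degrees of freedom, and no library was counted as a copy. Replicate numbers follow accession order and pair nothing; titles also carry a number that some libraries share, whose meaning the labels leave out.

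Members and lists were chosen with earlier results of these data known. Chains given in full are those called in at least 1 comparison and the 8 with the highest mean RPKM. From the lists (collagen making and processing, receptors and breakdown, TGF-beta signalling, and cell markers) at most 6 called genes of at least 1 CPM are named per comparison, by largest change; Acadl, Acadvl, Alb and Rn45s are library checks. The values of 1 gene of the TGF-beta list are not reported here.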

Additional observations from a re-analysis of the deposited data

Results flagged for a closer look

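In groups of 4 or 5 libraries, 25 chains were searched for a library far from the others, 125 group tests in all, and 3 were found; chance gives about 1 in 20 groups. Col14a1 in labelled Acadl KO / Acadvl Het was 2.031 RPKM in replicate 2 and 0.848 to 1.15 in the others. Col22a1 in the same library was 0.2835 RPKM, against 0.085 to 0.119. Col18a1 in labelled Acadl KO / Acadvl wt was 3.009 RPKM in replicate 4 and 1.90 to 1.97 in the others.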

How the results depend on the processing

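The number of chains called was within 1.5 times the main count under DESeq2 size factors and without the batch term, for all 7 comparisons. It moved elsewhere. Labelled Acadl KO / Acadvl wt against wild type (6 called) gave 0 in batch 1 and 13 when fitted on the libraries compared alone. Labelled Acadl KO against Acadl Het (17) gave 1 in batch 1, and 8 against Acadl Het / Acadvl wt alone once libraries above 10 CPM of Alb were dropped (chosen after seeing the data). With both controls kept it could not be fitted, since all Acadl Het / Acadvl Het libraries were removed, nor could the comparison of Acadvl Het with Acadvl wt or the interaction. Acadvl KO (8) gave 5 with no filter and with limma voom, 4 in batch 1, 2 in batch 2 and 2 on the libraries compared alone. Labelled Acadl KO / Acadvl Het against Acadl Het / Acadvl KO (4) gave 0 in batch 2, 0 on the libraries compared alone, 7 without the libraries above 10 CPM of Alb and 13 with DESeq2. Leaving out 1 library at a time gave 4 to 9, 12 to 19, 2 to 5 and 0 to 16 called in these 4 comparisons, and 0 in the other 3; every library left out of the Acadvl KO comparison lowered its count by over 1.5 times. For single genes, the sign turned for Col23a1 against Acadl Het in batch 1 (0.0144), and for Apoa1 against wild type in batch 1 (-1.32) and without the libraries above 10 CPM of Alb (-1.04), and for Skil in batch 1 (-0.000953). Of the log2 changes of called chains, 354 of the leave-one-out values kept their call and direction, 66 lost the call and 0 turned. The cause was not tested. Batch 1 has 9 libraries and few per genotype. Low chains such as Col22a1 rest on few counts per library. Replicate numbers follow accession order, but 10 of the 13 numbers in the sample titles are each shared by several libraries, and what they mark is not stated. Of the 9 pairs of libraries that share a number across genotypes, 4 had deviations correlated above 0.1 (range -0.2 to 0.332). With that number as a random replicate block in limma voom (added after seeing the data), 6, 18, 5 and 4 chains were called in these 4 comparisons and 0 in the other 3; without the block limma voom gave 6, 17, 5 and 4, and 0.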
